A study of Mus musculus with 24 samples.

Results

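The genes described here are those of the interferon response and of antigen presentation. They were listed by symbol and matched to the Ensembl gene IDs of a count table of mouse nucleus accumbens. Of 44 listed genes 43 were found among the 37991 genes of the table, and Psmb9 was not matched by ID and is not analysed here. They fall into 7 classes by role: 4 sensors of viral RNA or DNA (Ifih1, Ddx58, Dhx58, Zbp1), 4 signalling genes (Stat2, Irf9, Irf7, Usp18), 13 antiviral effectors (Ifit1, Ifit2, Ifit3, Ifit3b, Oas2, Oasl2, Isg15, Rsad2, Bst2, Ifitm3, Trim30a, Rtp4, Parp14), 5 other interferon-induced genes (Ifi27, Ifi35, Ifi44, Xaf1, Lgals3bp), 7 interferon-induced GTPases (Gbp2, Gbp3, Gbp7, Igtp, Irgm1, Irgm2, Iigp1), 6 genes of MHC class I presentation (B2m, H2-K1, H2-D1, Tap1, Tap2, Psmb8) and 4 of MHC class II presentation (Cd74, H2-Aa, H2-Ab1, H2-Eb1).

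Interferons are cytokines that bind receptors on the cell surface, whose JAK kinases activate STAT transcription factors. A complex that holds STAT2 and IRF9 binds the interferon-stimulated response element, and interferon-induced genes include effectors that block viral replication or load peptides for T cells. MHC class I presents peptides made inside the cell, and MHC class II, with its invariant chain Cd74, presents peptides taken up from outside. In brain tissue microglia, border-associated macrophages and infiltrating immune cells are known to carry class II, and neurons have little class I at rest.

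The study compared 24 libraries in 8 groups of 3, all from mice of C57BL/6J background, and each library held pooled mRNA of 4 mice. In the wild-type experiment females and males without a virus were unstressed controls or had been stressed, by a subchronic variable schedule according to the series title. In the floxed experiment all mice carried Dnmt3a2lox/2lox, in which loxP sites flank part of the gene for a de novo DNA methyltransferase, all were stressed, and females and males had received either AAV-GFP or AAV-CRE. Both floxed arms therefore share the stress, the floxed alleles and a virus, and no unstressed or virus-free floxed group was analysed here. The sources used here give neither the promoter that drives Cre nor the animals' ages, and the tissue protocol names dorsal striatum beside nucleus accumbens. The n in the text counts libraries, and p-values weigh a difference between groups against the spread between such pools.

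Promoter sequence shows what several of these genes have in common. RefSeq promoters of build GRCm38.p6, which is later than the build of the counts, were at hand for 32 of the 43 genes, as windows of 300 bases from 250 before to 50 after the gene's start. The 6 printed below are the bases before the start, 5′ to 3′ on the gene's strand, and capitals mark, on either strand, GAAA followed by any 2 bases and a second GAAA, the repeat that interferon-stimulated response elements carry. Ifit3 and Ifit3b are shown as near-identical copies, Isg15 and Bst2 as antiviral effectors, Igtp as a GTPase and B2m as the class I light chain.
Ifit3: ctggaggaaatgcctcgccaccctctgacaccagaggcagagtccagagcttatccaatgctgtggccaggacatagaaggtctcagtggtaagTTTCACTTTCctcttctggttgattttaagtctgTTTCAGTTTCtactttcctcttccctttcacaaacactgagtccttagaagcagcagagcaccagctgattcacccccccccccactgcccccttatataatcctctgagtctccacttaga
Ifit3b: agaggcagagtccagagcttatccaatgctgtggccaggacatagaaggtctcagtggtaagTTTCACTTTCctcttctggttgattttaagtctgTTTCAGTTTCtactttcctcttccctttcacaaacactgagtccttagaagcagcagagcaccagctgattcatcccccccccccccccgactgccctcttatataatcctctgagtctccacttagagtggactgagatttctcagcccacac
Isg15: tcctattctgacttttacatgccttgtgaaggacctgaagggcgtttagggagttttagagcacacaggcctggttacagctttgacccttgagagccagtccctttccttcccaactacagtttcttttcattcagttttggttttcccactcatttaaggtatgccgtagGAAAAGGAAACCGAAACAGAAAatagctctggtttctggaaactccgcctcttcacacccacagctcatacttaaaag
Bst2: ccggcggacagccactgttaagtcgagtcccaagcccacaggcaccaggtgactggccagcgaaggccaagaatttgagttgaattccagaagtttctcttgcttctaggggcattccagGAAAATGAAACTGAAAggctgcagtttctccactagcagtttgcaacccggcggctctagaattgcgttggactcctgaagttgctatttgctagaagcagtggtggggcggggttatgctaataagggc
Igtp: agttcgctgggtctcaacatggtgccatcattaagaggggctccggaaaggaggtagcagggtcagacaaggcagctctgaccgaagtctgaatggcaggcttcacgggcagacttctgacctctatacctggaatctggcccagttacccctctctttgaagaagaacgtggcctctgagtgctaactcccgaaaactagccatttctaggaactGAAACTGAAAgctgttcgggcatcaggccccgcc
B2m: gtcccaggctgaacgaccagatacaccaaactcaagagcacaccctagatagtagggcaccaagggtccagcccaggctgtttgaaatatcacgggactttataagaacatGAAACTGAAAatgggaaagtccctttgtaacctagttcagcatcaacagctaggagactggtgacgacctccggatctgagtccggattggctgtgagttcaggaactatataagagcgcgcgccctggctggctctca

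Ifit3 lies at chr19:34583279-34583528 (+), Ifit3b at chr19:34607707-34607956 (+), Isg15 at chr4:156200819-156201068 (-), Bst2 at chr8:71537473-71537722 (-), Igtp at chr11:58199306-58199555 (+) and B2m at chr2:122147437-122147686 (+). The windows lie upstream of each annotated start. Ifit3 and Ifit3b each have 2 matches, and their printed promoters share a run of 169 identical bases. Isg15 has 3 matches that overlap each other and Bst2 has 2 that overlap. The repeat occurred for 18 of the 32 genes (56.2%), against 1079 of 27025 genes with a RefSeq promoter (3.99%) and 3.44% of 32851 promoters. Some genes have more than 1 window, and a gene counted if any of its windows held a match. By class, 8 of 10 antiviral effectors, 6 of 6 GTPases and 2 of 2 sensors with an entry held a match, against 1 of 3 signalling genes (Stat2), 1 of 5 class I genes (B2m), 0 of 2 class II genes and 0 of 4 other induced genes. With the shorter GAAANNGAA, of which each longer match also holds one, the count was 19 of 32 (59.4%, against 9.76% of genes). A match is a description of these windows and was not tested for binding.

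Counts summed to between 7116123 and 12145551 per wild-type library and between 28132563 and 59829070 per floxed library. Levels are in CPM, counts relative to library size, scaled within each experiment. Dnmt3a, the targeted gene, stood at 155, 150 and 140 CPM in the Cre females (libraries 1, 2 and 3) against 162, 169 and 155 in the GFP females. In Cre males it stood at 143, 137 and 138 CPM against 182, 164 and 171 in GFP males. By edgeR's quasi-likelihood test with Benjamini-Hochberg adjustment over all genes, it was lower in Cre males (log2 fold change -0.31, SE 0.06, adjusted p = 0.0149) and did not pass in Cre females (-0.12, SE 0.06, adjusted p = 0.829). These are whole-gene counts, which keep reads from the undeleted part. All 11 striatal neuron markers were detected in every library, and summed to 6010 to 9810 CPM in wild-type mice. Adjusted p-values below come from this test unless another is named, and the threshold for a call was 0.05.

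In wild-type accumbens most of the genes were scarce. Per kilobase of exon (RPKM), B2m led at 49.6 ± 13.9 (SD, n = 12 libraries), then Ifi27 at 13.5 ± 2.99, Ifitm3, a membrane protein that blocks viral entry, at 7.36 ± 1.73, and Lgals3bp, a secreted glycoprotein, at 6.86 ± 1.86. The class I heavy chains H2-D1 and H2-K1 stood at 6.24 ± 1.16 and 4.38 ± 0.72 RPKM. Neighbours in this order from Ifitm3 to H2-D1 lay closer than their SDs. At the low end class II was close to the limit of detection: H2-Aa had 1 to 8 reads per library, H2-Ab1 1 to 15 and H2-Eb1 2 to 12, and Cd74 had 8 to 32. A filter on low counts kept 37 of the 43 genes for testing among 15249 wild-type genes. It left out Zbp1, Usp18, Oas2, H2-Aa, H2-Ab1 and H2-Eb1, so class II was tested in wild-type mice through Cd74 alone.

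In the floxed experiment all 43 genes were tested, among 17597. B2m again led at 301 ± 111 RPKM (SD, n = 12), followed by H2-D1 at 84.3 ± 33.3, Cd74 at 66.0 ± 42.4 and H2-K1 at 53.5 ± 22.3. Ifitm3 (21.6 ± 6.55), Ifi27 (21.0 ± 4.95) and Lgals3bp (18.8 ± 5.93) came next, within their SDs of one another, as were Cd74 and both heavy chains. The lowest were Oas2, an enzyme that makes the activator of RNase L, at 0.449 ± 0.226 RPKM, and Ifi44 at 0.447 ± 0.151.

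Set side by side, every floxed library lay above every wild-type library for 32 of the 43 genes. These include Zbp1, Usp18, Oas2, H2-Aa, H2-Ab1 and H2-Eb1, which the wild-type filter left out and for which no share over all genes is given. B2m ranged from 114 to 427 CPM in floxed libraries and from 29.3 to 71.5 in wild-type ones. H2-K1 ranged from 63.1 to 281 against at most 15.7, Tap1, a subunit of the peptide transporter, from 8.17 to 34.6 against 1.30 to 3.03, and Igtp from 5.69 to 40.5 against 1.88 to 3.85. Cd74 ranged from 31.4 to 244 CPM against 0.868 to 3.14. The 11 genes whose ranges overlapped were Ifi27, Ifi44, Ifih1, Ifit1, Irf7, Irgm2, Isg15, Lgals3bp, Oasl2, Rsad2 and Trim30a. Of the 37 genes tested in both experiments 26 lay wholly above (70.3%) and 0 wholly below, against 8.18% above and 5.36% below of all 14912 genes tested in both. The experiments were scaled separately and differ at once in virus, genotype, any batch and depth. They differ in stress as well, since all floxed mice were stressed and the wild-type libraries include unstressed controls. These differences cannot be told apart here, so no fold change was computed.

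Other lists moved between the experiments too. The 12 genes of the reactive glia list (with Gfap, C4b, Serpina3n and Cxcl10) gave sums of 358 to 799 CPM in floxed libraries and of 72.2 to 101 in wild-type ones, and 17 microglial genes to 654 to 1070 against 433 to 588. Cxcl10, an interferon-induced chemokine that is in the reactive glia list, stood at 0.961 to 9.53 CPM in floxed mice and at 0 to 0.326 in wild-type mice. Itgax, a dendritic cell and activated microglia marker, stood at 3.32 to 14.6 against 0 to 0.651. The 13 genes of its border macrophage and dendritic cell list summed to 22.5 to 46.9 CPM against 16.6 to 23.9, so the list as a whole overlapped. The 10 astrocyte markers overlapped, at 4140 to 4730 against 4310 to 5780, and so did the endothelial and mural list, at 514 to 666 against 493 to 612. Their part in the difference was not tested. In whole tissue more cells of a type and more RNA per cell cannot be told apart.

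**Figure D1:**
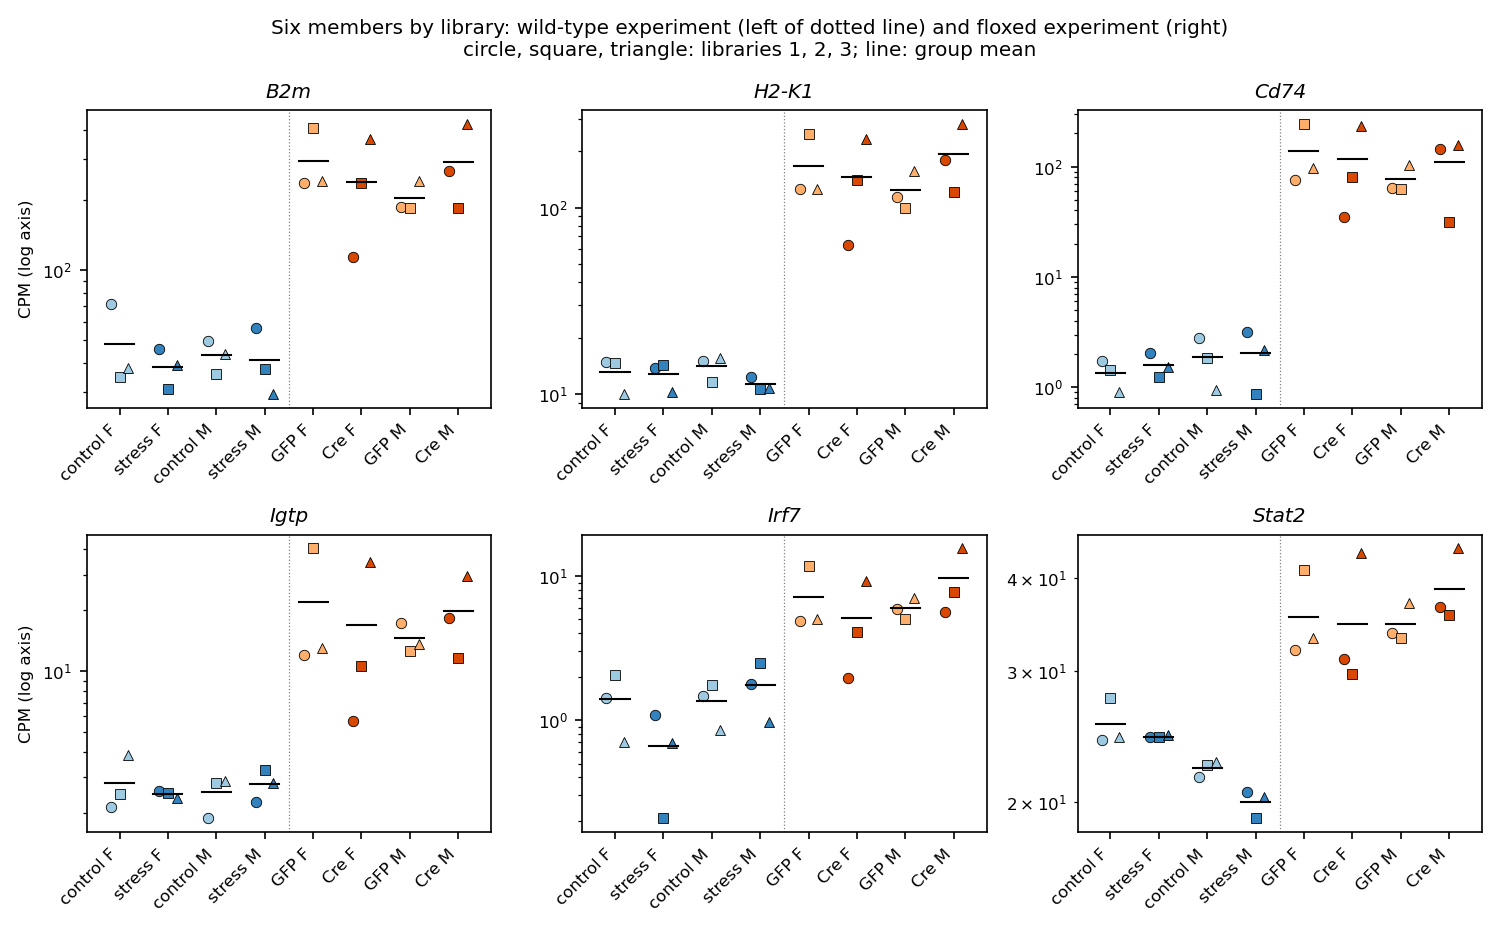
Levels of 6 of the genes in all 24 libraries, in CPM on a log axis, by group. Circles, squares and triangles are libraries 1, 2 and 3 and the line is the group mean. The floxed libraries lie above the wild-type ones for B2m, H2-K1, Cd74, Igtp and Stat2, and Irf7 overlaps. The experiments were scaled separately.

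Within the floxed experiment the main feature was that several whole libraries stood apart, across all 7 classes at once. A library's position is given here as the median, over the 43 genes, of its log2 CPM minus the mean of its group. Cre female libraries 1, 2 and 3 stood at -0.80, -0.01 and 0.67, so libraries 1 and 3 of this group lay apart by more than a doubling. GFP female libraries stood at -0.33, 0.55 and -0.27, Cre male libraries at -0.16, -0.30 and 0.51, and GFP male libraries at 0.03, -0.22 and 0.20. Over all tested genes the same median lay within 0.01 of 0 in each floxed library. The SD of these medians within groups was 0.503 in the floxed and 0.077 in the wild-type experiment, where they ran from -0.08 to 0.13. In Cre male libraries 1 and 2 the classes did not move together, which their medians hide. Cd74 stood at 0.70 and -1.51 from the group mean in these libraries, and Ifit1 at -0.56 and 0.15.

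Cre female library 3 had the highest level of its group for 43 of 43 genes (33.3% of all genes tested), and GFP female library 2 likewise for 43 of 43 (37.5%). Cre male library 3 was highest for 41 of 43 (31.9%). The other 2, Lgals3bp and Ifi27, were highest in Cre male library 2. At the low end, Cre female library 1 was lowest of its group for 42 of 43 (31.4%), all but Stat2, and GFP male library 2 for 41 of 43 (38.7%). High libraries thus occurred in both virus arms and in both sexes.

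Class II varied most. Cd74 stood at 34.6, 79.7 and 235 CPM in Cre female libraries 1, 2 and 3, and at 75.2, 244 and 97.6 in GFP females. In Cre males it stood at 145, 31.4 and 156 CPM, and in GFP males at 64.3, 63.1 and 103. Library 3 of the Cre females and library 2 of the GFP females were alike, and the ranges of the 4 groups overlapped. H2-Aa, the class II alpha chain, followed the same order at 13.7, 28.0 and 77.1 CPM in Cre females, and 24.6, 86.1 and 30.8 in GFP females. In Cre males H2-Aa stood at 53.7, 11.5 and 56.9 CPM and in GFP males at 23.7, 21.2 and 31.4. H2-Ab1, the class II beta chain, stood at 8.85, 18.9 and 45.6 CPM in Cre females, 14.7, 48.6 and 17.4 in GFP females, 30.2, 7.58 and 34.3 in Cre males and 13.9, 13.2 and 18.3 in GFP males. All 4 class II genes were lowest in library 2 of the Cre males, where the class stood at -1.51 from the group mean, against 0.65 and 0.80 in libraries 1 and 3.

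The median ratio of the highest to the lowest library over the 4 class II genes was 6.23 in Cre females, 4.97 in Cre males, 3.41 in GFP females and 1.53 in GFP males. Over all 43 genes it was 2.78, 1.89, 1.92 and 1.37 in that order, against 1.16, 1.20, 1.17 and 1.14 over all genes tested. In the wild-type groups, at lower depth, it was 1.69 in control females, 1.52 in control males, 1.48 in stressed females and 1.33 in stressed males, against 1.45, 1.30, 1.37 and 1.33 over all genes.

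The GTPases, some of which attack the vacuoles of intracellular pathogens, were next in spread in both female groups (median ratio 3.61 in Cre and 2.44 in GFP females). Class I was next in the male groups (2.41 in Cre and 1.52 in GFP males). Igtp stood at 5.69, 10.6 and 34.6 CPM in Cre females, 12.1, 40.5 and 13.1 in GFP females, 18.3, 11.6 and 29.5 in Cre males, and 17.3, 12.6 and 13.7 in GFP males. Iigp1 stood at 5.28, 8.87 and 25.2 CPM in Cre females and at 10.1, 29.6 and 11.2 in GFP females. The same libraries were high for both. As a class the GTPases stood at -0.97, -0.11 and 1.06 in the Cre female libraries, more apart than the antiviral effectors at -0.56, 0.08 and 0.59, and less than class II at -1.25, -0.09 and 1.37. Igtp and Irgm2 overlap on the same strand, and the GTPase families have close copies, so their counts can share reads.

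Class I showed the same libraries at higher levels. H2-K1 stood at 63.1, 141 and 232 CPM in Cre females, 125, 247 and 126 in GFP females, 179, 121 and 281 in Cre males, and 114, 99.4 and 157 in GFP males. H2-D1 stood at 92.7, 194 and 308 CPM in Cre females, 198, 333 and 193 in GFP females, 251, 147 and 379 in Cre males and 162, 133 and 220 in GFP males. B2m stood at 114, 238 and 367 CPM in Cre females, 238, 409 and 242 in GFP females, 268, 186 and 427 in Cre males and 188, 186 and 242 in GFP males. The groups overlap for all 3 genes, and the heavy chains are close copies whose reads may be split. Irf7, the factor that amplifies type I interferon, stood at 1.97, 4.06 and 9.19 CPM in Cre females, 4.86, 11.7 and 5.01 in GFP females, 5.64, 7.71 and 15.6 in Cre males and 5.91, 5.01 and 7.01 in GFP males. Irf7 overlaps Phrf1, and whether reads were counted by strand is not given in the sources used here. Stat2 varied least within the list, from 29.7 to 43.8 CPM over the 12 floxed libraries.

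**Figure D2:**
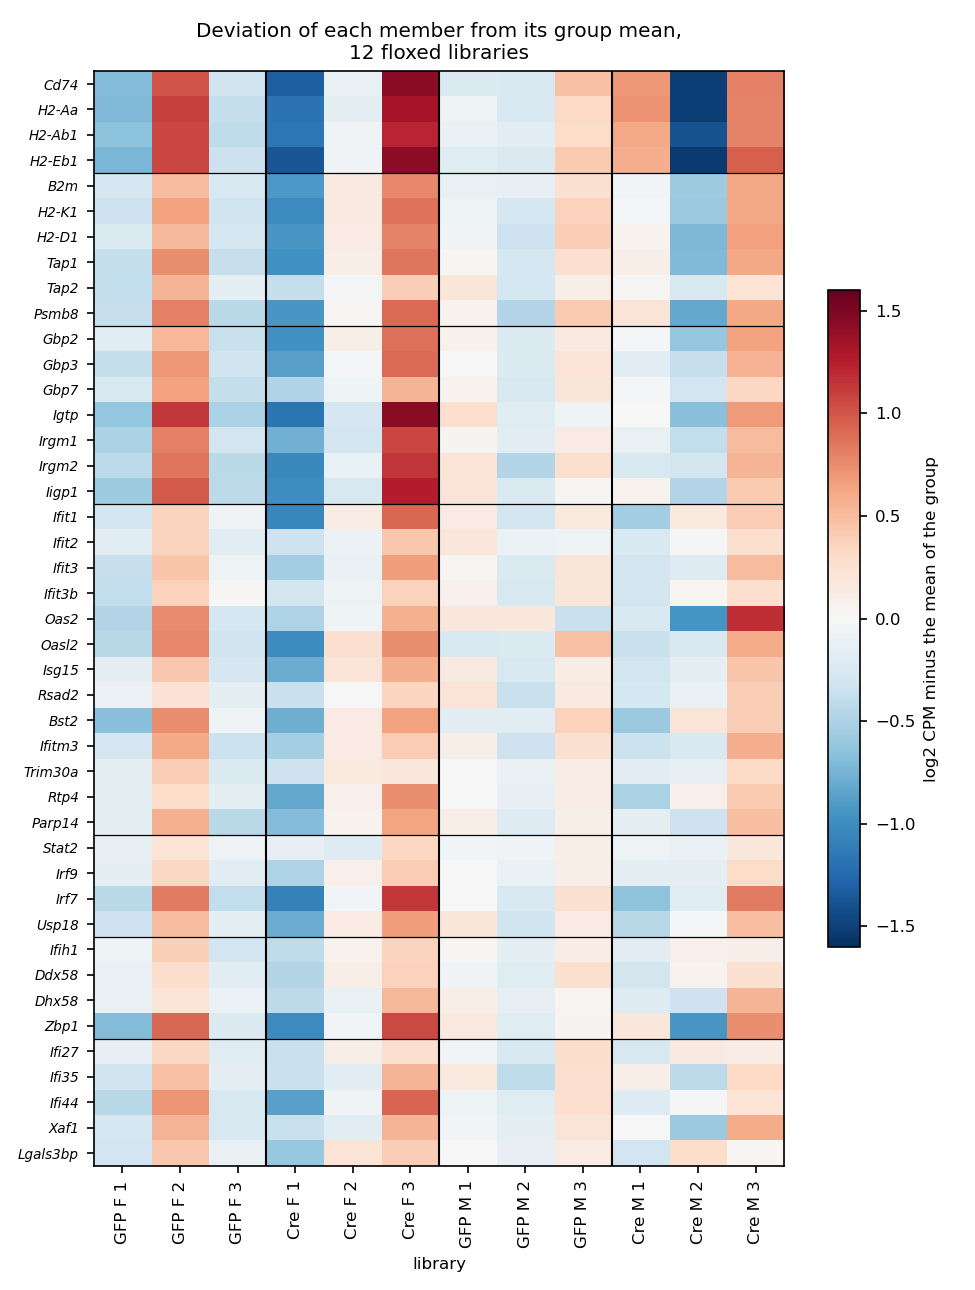
Each of the 43 genes (rows, by class) in the 12 floxed libraries (columns), as log2 CPM minus the mean of the library's group. Cre female library 3 and GFP female library 2 are above their group mean for all 43 genes, Cre male library 3 likewise, and Cre female library 1 is below it for all 43.

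Markers of other cells moved with these libraries. The 17 microglial genes stood at medians of -0.28, 0.02 and 0.28 in Cre female libraries 1, 2 and 3, at -0.19, 0.30 and -0.13 in GFP females and at 0.09, -0.25 and 0.18 in Cre males, and summed to 654, 850 and 1020 CPM, 757, 1070 and 768, and 934, 716 and 1020. The reactive glia list summed to 405, 512 and 744 CPM in Cre females, 484, 788 and 458 in GFP females, 765, 410 and 799 in Cre males, and 425, 358 and 467 in GFP males. By these sums both lists were highest in the library of each group that was highest for most of the interferon genes. The border macrophage and dendritic cell list summed to 22.5 to 46.9 CPM in floxed libraries, with Cd209a at 0 in every library of the Cre female, GFP female and GFP male groups. The lymphocyte and blood list summed to 37.2 to 74.5 CPM against 66.5 to 155 in wild-type libraries. Astrocyte markers stayed within 0.09 of the group mean in all floxed libraries. The part of these cells in the spread was not tested.

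Cre male libraries also stood apart for other regions' markers. In library 2 of this group the 11 striatal neuron markers summed to 3290 CPM, against 5840 to 7690 in the other floxed libraries. The choroid plexus and ependymal list summed to 2140 CPM in library 2. Cortical markers were high in all Cre male libraries, at 804, 808 and 417 CPM against 150 to 217 in the other floxed groups. Of the 12 cortical markers 10 were called higher in Cre males, beside 4.96% of all genes called in either direction. These values bear on every comparison with Cre males, and their part was not tested.

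**Figure D3:**
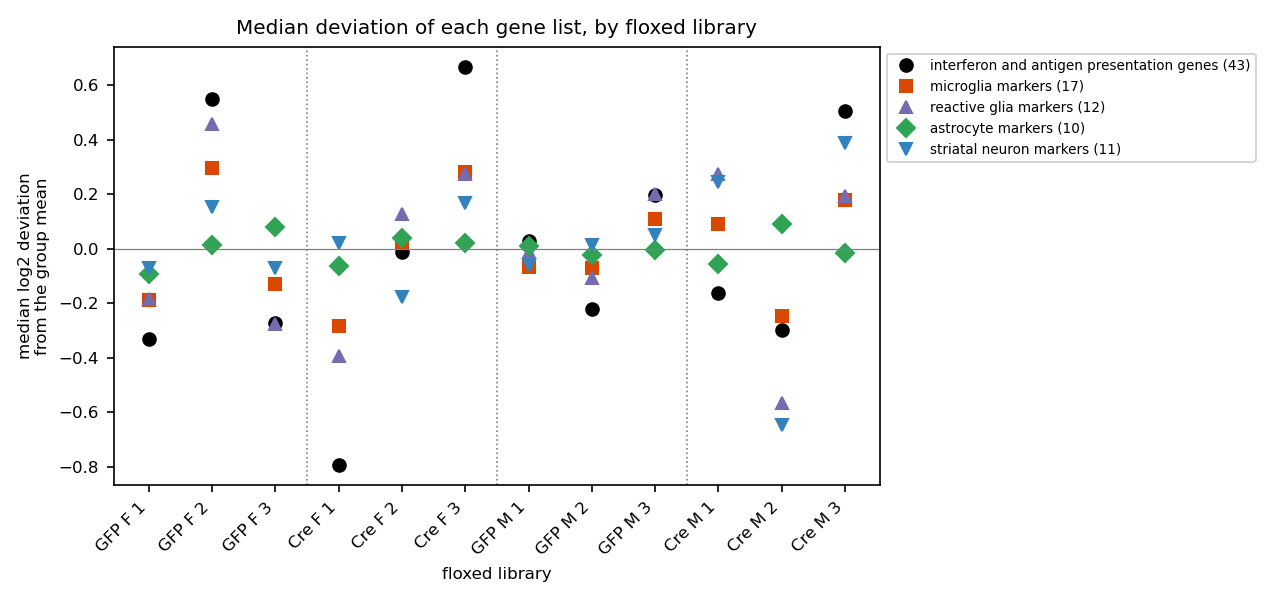
Median deviation from the group mean (log2 CPM) in each floxed library, for the interferon and antigen presentation genes and for 4 lists of cell markers. The interferon genes run from -0.80 to 0.67, the microglial and reactive glia lists move the same way over a smaller range in the female groups, and the astrocyte list stays near 0.

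Cre against GFP compares AAV-CRE with AAV-GFP in the stressed accumbens of floxed mice. Within sexes, whole-gene Dnmt3a counts were called lower in Cre males and not in Cre females. In females no gene of the list was called by edgeR, 0 had an unadjusted p below 0.05 (5.96% of all genes did), and 0 were called by DESeq2 or limma-voom. The background share was 0.0% of all genes called by edgeR. Every one of the 43 genes overlapped between the arms, where 6.5% of all genes lay wholly higher and 5.04% wholly lower in Cre. The fitted difference was below 0 for 40 of 43 genes with a median of -0.22 (log2), against 49.9% of all genes and a median of 0.00. Above 0 were Gbp2 (0.30), Ifit3 (0.05) and Trim30a (0.01).

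That female median rested on single libraries. It was -0.70 without Cre female library 3, 0.06 without Cre female library 1 and 0.14 without GFP female library 2. Class medians ran from -0.11 in signalling genes to -0.36 in the GTPases. The 6 genes of smallest p were Oas2 (-0.73, SE 0.53), Dhx58, a regulator of RNA sensing (-0.37, SE 0.27), Lgals3bp (-0.36, SE 0.27), Ifit2 (-0.26, SE 0.21), Gbp7 (-0.35, SE 0.32) and Oasl2 (-0.53, SE 0.48), with adjusted p from 0.886 to 0.898. Gbp7 turned to 0.05 without GFP female library 2. Oas2 stood at 1.04, 1.39 and 2.17 CPM in Cre females against 1.72, 4.01 and 1.95 in GFP females. For the abundant genes the SE exceeded the difference: B2m -0.31 (SE 0.43), H2-K1 -0.19 (SE 0.48), H2-D1 -0.29 (SE 0.46), Cd74 -0.25 (SE 0.77), H2-Ab1 -0.13 (SE 0.70) and Irf7 -0.49 (SE 0.58).

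In males the fitted differences were mostly above 0, and again none of the 43 was called by edgeR, beside 4.96% of all genes tested. At an unadjusted p below 0.05 there were 4 of 43, against 24.8% of all genes. Above 0 were 38 of 43 genes with a median of 0.33, against 50.9% of all genes and a median of 0.01. Below 0 were Isg15 (-0.13), Trim30a (-0.08), Gbp2 (-0.08), Zbp1 (-0.07) and Ifit3 (-0.06). Class medians were 0.65 for class II, 0.55 for class I, 0.39 for GTPases, 0.32 for other induced genes, 0.27 for signalling genes, 0.23 for antiviral effectors and 0.20 for sensors. The median of all 43 was 0.09 without Cre male library 3 and 0.48 without Cre male library 2.

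Lgals3bp stood at 58.3, 87.4 and 72.8 CPM in Cre males and at 42.8, 38.8 and 46.7 in GFP males, with no overlap. Its log2 fold change was 0.77 (SE 0.27, edgeR adjusted p = 0.123, n = 3 and 3). Bst2, or tetherin, which holds budding virions at the cell surface, stood at 7.54, 13.1 and 14.9 CPM in Cre males against 4.59, 4.58 and 6.73 in GFP males, also without overlap (1.16, SE 0.43, edgeR adjusted p = 0.136). DESeq2 called both (adjusted p = 0.0204 for Lgals3bp and 0.0341 for Bst2), where it called 1811 genes in all against 872 by edgeR. A fit to the male floxed groups alone called Lgals3bp (adjusted p = 0.0343). Left-out libraries gave 0.61 to 0.91 for Lgals3bp and 0.96 to 1.40 for Bst2, with edgeR adjusted p from 0.062 to 0.328 and from 0.101 to 0.304.

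Ifih1, the sensor of long double-stranded RNA also called MDA5, stood at 7.09, 8.37 and 8.44 CPM in Cre males against 5.91, 5.25 and 6.30 in GFP males, the third gene without overlap (0.45, SE 0.20, edgeR adjusted p = 0.189). Over all genes 14.7% lay wholly higher and 14.7% wholly lower in Cre males, against 3 of 43 and 0 of 43 here. Ifi27 stood at 32.7, 43.3 and 42.3 CPM against 27.3, 23.8 and 34.3, with overlap (0.47, SE 0.20, edgeR adjusted p = 0.178). Tap2 (0.36, SE 0.26) and Gbp7 (0.44, SE 0.32) had adjusted p of 0.409 and 0.428. The class I and II genes had larger differences with larger errors: B2m 0.51 (SE 0.43), H2-K1 0.65 (SE 0.49), H2-D1 0.59 (SE 0.46), Cd74 0.52 (SE 0.78) and H2-Ab1 0.65 (SE 0.72). Irf7 was at 0.68 (SE 0.57). Beside these, the microglial list had a median of 0.18 with 16 of 17 above 0 and 0 called, and the reactive glia list 0.44 with 10 of 12 above 0. In females these lists stood at -0.03 (4 of 17 above 0) and 0.00 (7 of 12).

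Averaged over sexes the median was 0.07 (-0.02 with limma-voom), with 29 of 43 above 0 and 0 called by edgeR, beside 1.42% of all genes. The 3 genes of smallest p were Bst2 (0.42), Lgals3bp (0.20) and Ifi27 (0.13), with adjusted p from 0.58 to 0.729. DESeq2 and limma-voom called 0 of 43 as well, and 0 of 43 had an unadjusted p below 0.05 against 14.2% of all genes. The difference between the sexes' responses, female minus male, had a median of -0.64 with 39 of 43 below 0 and 0 called by edgeR, beside 0.0114% of all genes. At an unadjusted p below 0.05 there were 4 of 43, against 17.5% of all genes. Lgals3bp (-1.13, edgeR adjusted p = 0.197), Bst2 (-1.47, 0.252) and Ifi27 (-0.68, 0.256) led, and DESeq2 called Lgals3bp (adjusted p = 0.034) among 606 genes. The interaction median was -1.06 without Cre female library 3, -0.17 without GFP female library 2, -0.33 without Cre female library 1 and -0.35 without Cre male library 3.

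**Figure D4:**
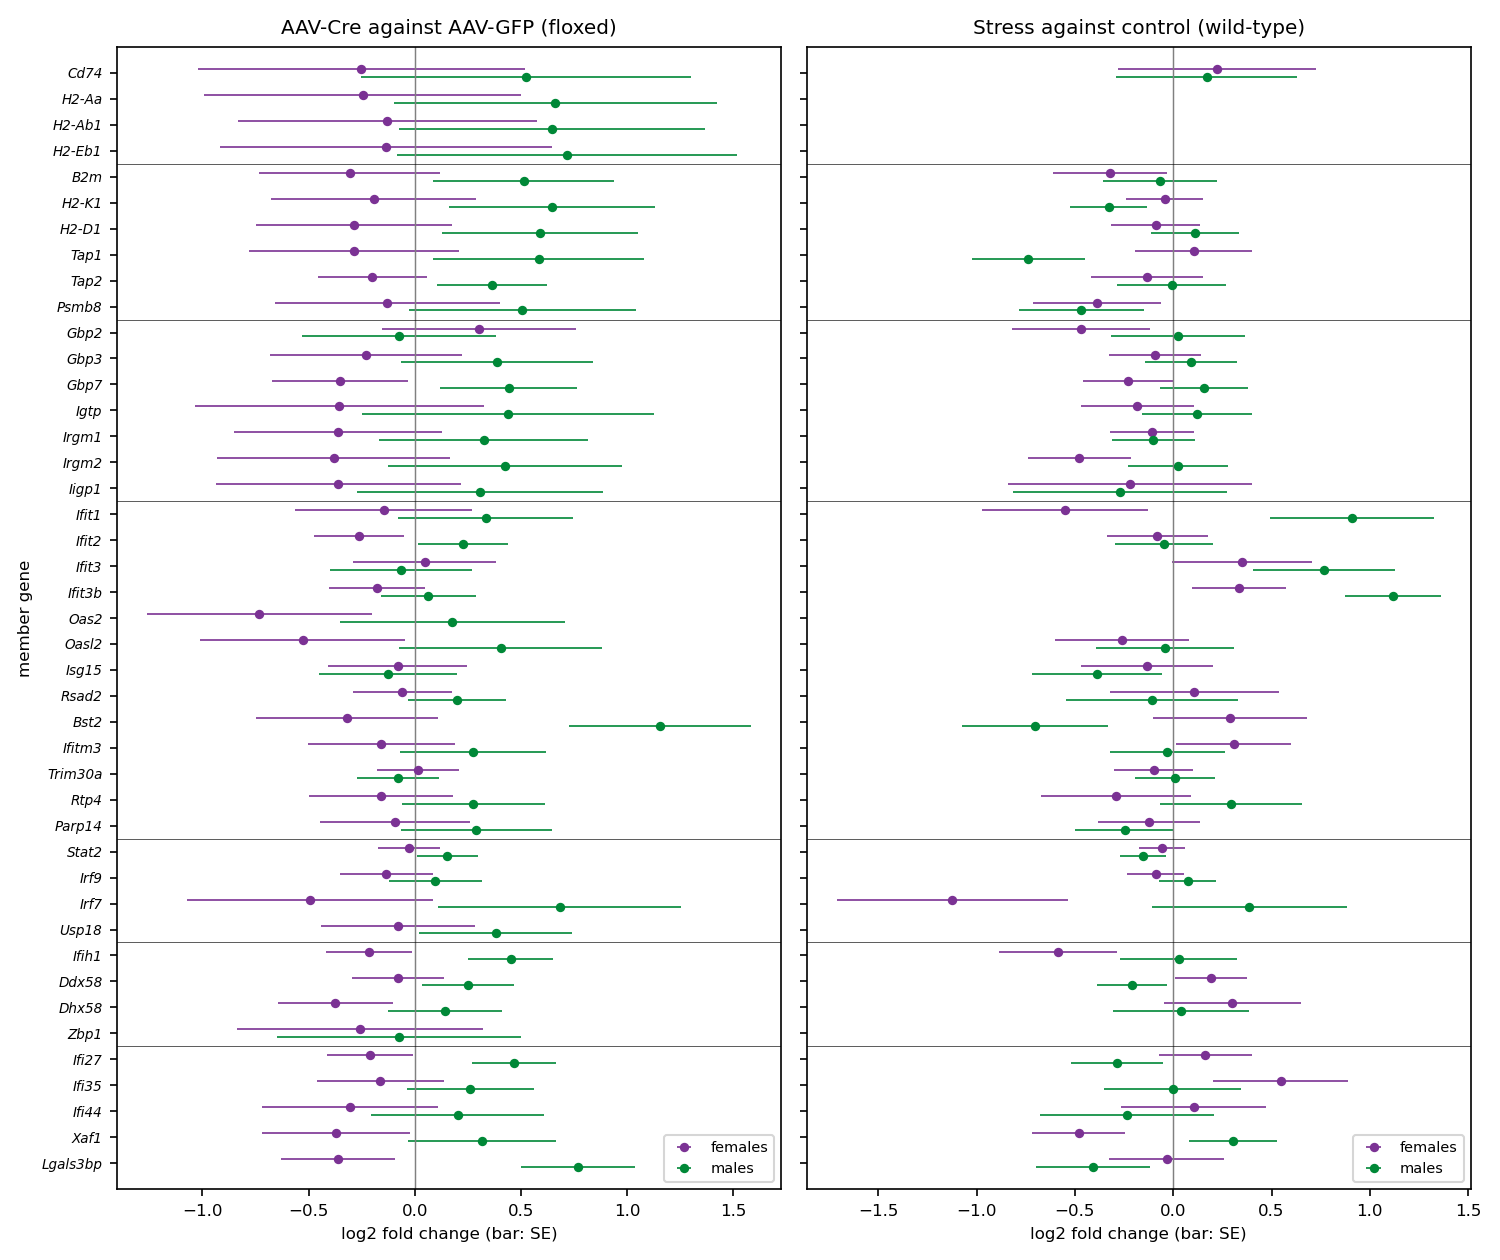
Log2 fold change with its SE for each gene, Cre against GFP on the left and stress against control on the right, females in purple and males in green. In Cre females 40 of 43 points lie below 0 and in Cre males 38 of 43 above 0, with error bars that mostly cross 0. The arms of each experiment have 3 libraries per group.

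In wild-type mice the comparison of stressed with control animals called no gene of the list in females. The background was 0.0% of all genes, 0 of 37 had an unadjusted p below 0.05 by edgeR against 1.68% of all genes, and DESeq2 and limma-voom called 0. The fitted median was -0.09, against -0.01 over all genes, with 12 of 37 above 0. All 7 GTPases were below 0 (class median -0.22), and 5 of 6 class I genes (-0.11). Without control female library 2 the median over the 37 genes was 0.01.

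Xaf1, an apoptosis-linked induced gene, stood at 2.44, 2.29 and 2.50 CPM in stressed females and at 3.34, 3.19 and 3.55 in controls, without overlap (-0.48, SE 0.24). Ifi35 lay wholly higher at 1.63, 1.87 and 1.39 CPM against 1.01, 1.23 and 1.12 (0.55, SE 0.34). Over all genes 2.58% lay wholly lower and 2.72% wholly higher. Ifih1 was at -0.58 (SE 0.30), Irgm2 at -0.48 (SE 0.26) and Ifit3b at 0.34 (SE 0.24). Irf7, at -1.12 (SE 0.59), had 1.08, 0.208 and 0.696 CPM in stressed females against 1.42, 2.06 and 0.710 in controls, which at this depth is 2 to 23 reads per wild-type library, and was at -0.64 to -1.69 as single libraries were left out. All 6 had an edgeR adjusted p of 1.0.

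In males stress again gave 0 called genes by edgeR, DESeq2 and limma-voom (background 0.00656% of all genes), while 3 of 37 had an unadjusted p below 0.05 (against 2.81% of all genes). Ifit3b, an antiviral protein of the IFIT family, stood at 2.94, 2.93 and 3.56 CPM in stressed males and at 1.56, 1.41 and 1.36 in control males. The groups did not overlap, and the log2 fold change was 1.12 (SE 0.24, unadjusted p = 0.00051, edgeR adjusted p = 1.0). It ranged from 1.02 to 1.18 with single libraries left out, and the adjusted p from 0.353 to 1.0. Its near-copy Ifit3 stood at 3.43, 5.86 and 3.02 CPM against 2.61, 1.74 and 2.81, also without overlap (0.77, SE 0.36, edgeR adjusted p = 1.0). The printed promoters show how alike these copies are, and how the counting split reads between them is not given, so they are not separate support.

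Ifit1 stood at 1.27, 2.50 and 2.59 CPM in stressed males against 1.46, 0.977 and 0.936, with overlap (0.91, SE 0.42). Lower in all stressed males were Tap1, at 2.26, 1.30 and 1.30 CPM against 3.03, 2.61 and 2.55 (-0.74, SE 0.29), Bst2, at 1.47, 1.30 and 1.62 against 2.71, 2.82 and 1.70 (-0.70, SE 0.37), and Stat2, at 20.6, 19.0 and 20.3 against 21.6, 22.4 and 22.6. H2-K1 was at -0.33 (SE 0.20) with overlap. These adjusted p-values were 1.0 by edgeR. The 2 of 37 genes wholly higher and 3 of 37 wholly lower compare with 3.67% and 4.24% of all genes. The median was -0.01 over the 37 genes, as over all genes at 0.00, with 17 above 0. It was 0.04 at the highest and -0.12 without stressed male library 1. The choroid plexus list had a median of -2.45 in this contrast with 11 of 13 below 0, and its part was not tested.

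**Figure D5:**
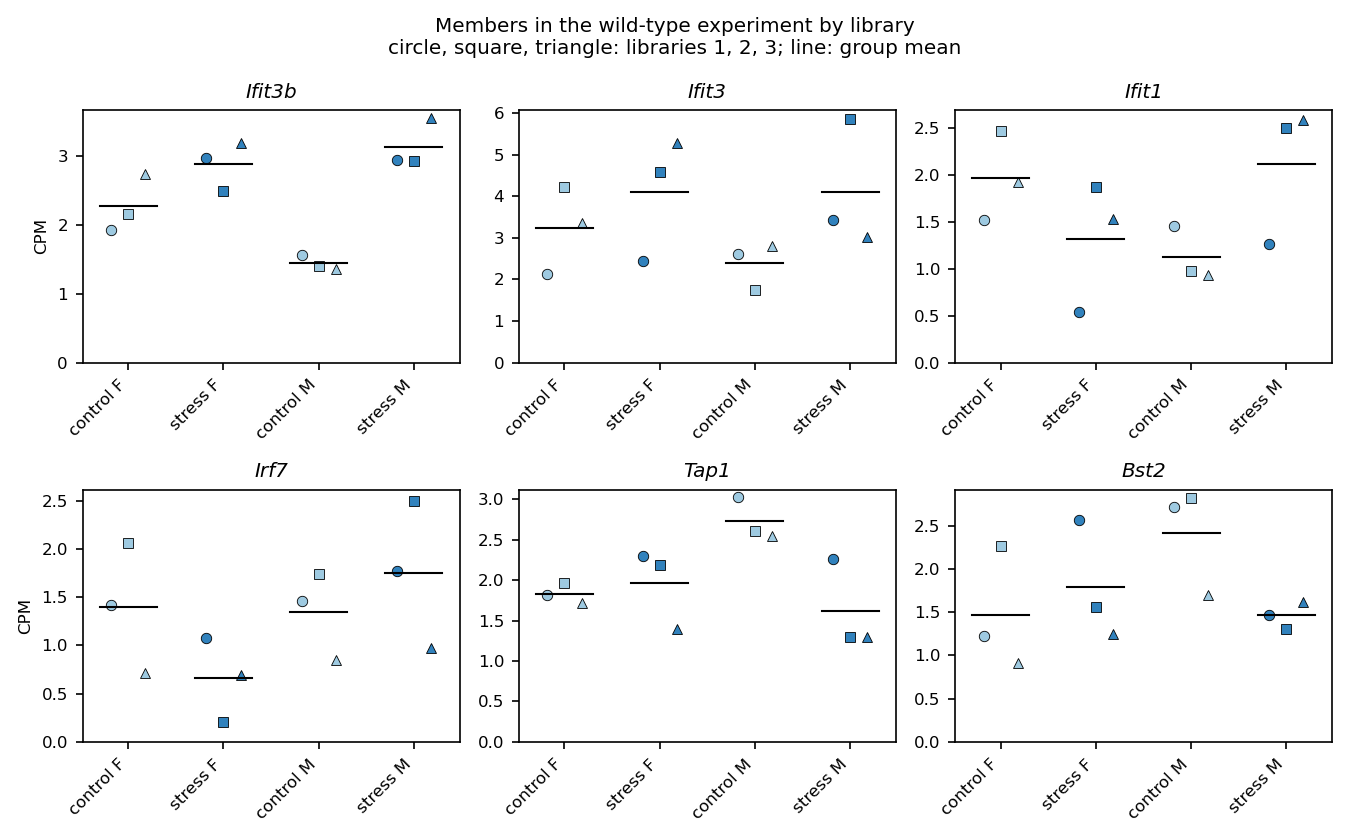
CPM of Ifit3b, Ifit3, Ifit1, Irf7, Tap1 and Bst2 in the 12 wild-type libraries, by group, on linear axes from 0. Points are libraries and lines are means. Ifit3b and Ifit3 lie wholly higher, and Tap1 and Bst2 wholly lower, in stressed than in control males, at levels of a few CPM.

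Averaged over sexes, Ifit3b was again first (0.73, SE 0.17, edgeR adjusted p = 0.888), before Ifit3 (0.56) and Psmb8, a subunit of the immunoproteasome (-0.43), both at an adjusted p of 1.0. The median was -0.07 with 28 of 37 below 0, 2 of 37 had an unadjusted p below 0.05 against 3.21% of all genes, and 0 were called by edgeR, DESeq2 and limma-voom beside 0.0131% of all genes. The stress by sex difference, female minus male, called 0 as well (0.0% of all genes, and 0 by the other tools) with 3 of 37 at an unadjusted p below 0.05 against 1.19% of all genes. These were Ifit1 (-1.46), Xaf1 (-0.78) and Ifit3b (-0.78), all at an edgeR adjusted p of 1.0. Xaf1 stood at 3.73, 3.58 and 3.46 CPM in stressed males against 3.86, 2.61 and 2.30 in control males, where the groups overlapped.

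Females and males did not differ at the threshold in either experiment. In wild-type mice 0 of 37 genes were called by edgeR, DESeq2 or limma-voom, beside 0.0393% of all genes by edgeR, and 2 had an unadjusted p below 0.05 against 5.03% of all genes. Ifi44 stood at 1.11, 1.54 and 0.913 CPM in control females and 0.813, 1.35 and 1.67 in stressed females, against 0.730, 0.651 and 0.596 in control males and 0.785, 0.434 and 0.432 in stressed males. For Ifi44 all female libraries lay above all male libraries, and the difference was 1.01 (SE 0.28, edgeR adjusted p = 0.969). Ifi44 had only 4 to 15 reads per wild-type library. Stat2 (0.24) and Irf7 (-0.69) came next, at an adjusted p of 0.971. Stat2, with 175 to 268 reads, separated the sexes fully as well. Its lowest female library (24.2 CPM) exceeded its highest male library (22.6 CPM). No share over all genes is given for such separation by sex. In the floxed mice 0 of 43 were called by the same 3 tools, beside 0.0682% of all genes by edgeR, and 0 had an unadjusted p below 0.05 against 6.68% of all genes. Ifi27 (-0.28, adjusted p = 0.813), Ifit2 (-0.24) and Rsad2, or viperin (-0.23), had the smallest p. The median difference, female minus male, was 0.44 for class II with 4 of 4 above 0, and -0.19 for the other induced genes with 0 of 5 above 0.

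Genes of the same pathways outside the 43 were read from 6 lists: 11 interferon ligands, 17 receptors and kinases, 10 regulators, 19 nucleic acid sensing genes, 44 other interferon-induced genes and 26 other antigen presentation genes. The regulators were the interferon regulatory factors Irf1, Irf2 and Irf8, with Irf2bp1, Irf2bp2, Irf2bpl, Nlrc5, Ciita, Nfkb1 and Rela. The 8 matched ligands summed to at most 0.434 CPM in wild-type libraries, with all 8 at 0 in stressed males, and to 0.0286 to 0.191 CPM in floxed libraries. The 44 other induced genes followed the same floxed libraries, with medians of -0.67, 0.10 and 0.50 in Cre females, -0.20, 0.47 and -0.28 in GFP females and -0.05, -0.38 and 0.46 in Cre males. In Cre females 8 of 44 were above 0 (median -0.15) and in Cre males 37 of 44 (0.22). Of the other antigen presentation genes 3 of 26 were above 0 in Cre females (-0.14) and 23 of 26 in Cre males (0.31).

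By edgeR's test, 1 of 10 regulators was called higher and 1 of 17 receptors and kinases was called lower in Cre males. This stands beside 4.96% of all genes, and 0 of the other tested pathway genes were called. Irf1, Irf2 and Irf8 were not called there (edgeR adjusted p = 0.5, 0.468 and 0.371). The regulator called was Irf2bpl, which is named for likeness to an IRF2-binding protein and is not itself an interferon regulatory factor. It rose from 48.9 ± 3.86 CPM in GFP males to 72.2 ± 7.18 in Cre males (SD, n = 3, log2 fold change 0.56, SE 0.10, edgeR adjusted p = 0.0135). Its adjusted p was 0.0679 without GFP male library 2 and 0.0647 without GFP male library 3. Jak2, the kinase of the interferon gamma receptor, fell from 102 to 85.8 CPM (-0.25, SE 0.06, edgeR adjusted p = 0.038), and its call was lost in 9 of 12 fits that left out 1 library. In females neither Irf2bpl (0.42, edgeR adjusted p = 0.508) nor any other gene of these lists passed. Averaged over sexes, Irf2bpl (0.49, edgeR adjusted p = 0.0125) and Irf2bp1 (0.35, adjusted p = 0.0376) rose, beside 1.42% of all genes. The first was lost without GFP male library 2 or 3 (up to 0.0654) and the second in 9 of 12 such fits (up to 0.124).

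Just outside the threshold in Cre males were Ctsl, a lysosomal protease (0.30, edgeR adjusted p = 0.0511), Ifnlr1, a chain of the interferon lambda receptor (1.06, 0.0512), and Psmb10, an immunoproteasome subunit (0.50, 0.0536). Psmb10 stood at -0.31 in Cre females (edgeR adjusted p = 0.824) and Ifi27l2a, a relative of Ifi27, at -0.69 (0.859). Stress called none of these genes in either sex. The smallest p in stressed females belonged in their lists to Sp100 (-0.69), Psme1 (0.22) and Nlrc5, the class I transactivator (-0.76), and in stressed males to Trim12a (-0.87), Tlr7 (0.76), Ciita, the class II transactivator (-0.55), and Ctss (0.18), all with an edgeR adjusted p of 1.0.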

How the data were processed

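Libraries of mRNA from mouse nucleus accumbens were sequenced by the study, with each library a pool of 4 mice. The authors deposited raw counts per Ensembl gene, whole numbers without scaling. The submitters' processing notes list Bowtie2 2.1.0, TopHat2 2.0.9, HTSeq 0.6.0 and the builds NCBIM37 and mm9, with no settings. Symbols were found for 32919 IDs and not for 5072. The members and lists were chosen with earlier results of these data known. Groups came from the labels.

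Counts of each experiment were filtered (filterByExpr), TMM-scaled and fitted over its 4 groups with robust quasi-likelihood models in edgeR 4.0.16 (R 4.3.3). The test was also run on simulated counts in which each gene varied independently. That run does not cover libraries in which the genes of the list deviate together. Tried as alternatives were DESeq2 1.42.0, limma-voom 3.58.1, RLE scaling, no filter, at least 1 CPM in 3 libraries, the 2 compared groups alone, a replicate block and each library left out. Log2 CPM used a prior count of 0.5, and RPKM the union of exon lengths in GENCODE M21.

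Genes with values were all members by class, and by rule the 6 of smallest p per within-sex contrast and 3 per other contrast, fixed members such as Irf7, B2m and Cd74, called pathway genes and up to 3 of smallest p per pathway list. Genes whose groups did not overlap, those of extreme spread and the promoters shown were chosen after their values were seen. Counts of overlapping genes (Dhx58, Irf7, Usp18, Ifi35, Tap1, Tap2, Psmb8, Igtp, Irf9, Gbp2, Gbp7, Cd74, Rtp4, Parp14) and of close copies are uncertain. No pair of libraries within a group agreed within sampling noise. Same-numbered libraries deviated together in control and stressed females (correlations 0.566, 0.335 and 0.483) and in control males and stressed females (0.594, 0.395 and 0.226). In the other 4 wild-type group pairs number 1 correlated at 0.298 to 0.493, and not every number passed 0.1. No floxed group pair had all 3 over 0.1. Of the within-sex comparisons only stress in females therefore had all 3 correlations over 0.1. Control and stressed males stood at 0.298, 0.206 and 0.089. The SEs and edgeR p-values given above for stress come from a fit without a replicate block.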

Additional observations from a re-analysis of the deposited data

How the results depend on the processing

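Across RLE scaling, other filters, limma-voom, DESeq2, the 2 compared groups alone and the replicate block, 125 counts and medians over the list stayed on their side of the threshold or moved by less than the spread between libraries. That spread was the SD of library medians, 0.503 in the floxed and 0.077 in the wild-type experiment. The Cre medians of -0.22 (females), 0.33 (males) and 0.07 (averaged) are closer to 0 than 0.503, so this rule says little about their stability. Medians near 0 changed sign for Cre averaged over sexes (0.07 to -0.02, limma-voom), stress in males (-0.007 to 0.014, limma-voom), the stress by sex interaction (-0.03 to 0.02, no filter) and sex in floxed mice (0.007 to -0.05 with limma-voom and -0.02 with the replicate block). The 3 that moved further were counts of genes called that went from 0 to 2 (DESeq2) and 1 (the male floxed groups alone) for Cre in males and from 0 to 1 (DESeq2) for the Cre by sex interaction. The cause was not tested. Counts over all genes moved more: for Cre in males 872 became 515 to 1811, and 93 to 1303 with 1 library left out. For Cre averaged over sexes 249 became 87 to 652, and 17 to 401 with 1 library left out. Cre in females went from 0 to 34 with DESeq2, its interaction from 2 to 606, and sex in floxed mice from 12 to 89. Stress averaged over sexes went from 2 to 12 with DESeq2. With the replicate block 0 genes of the list were called in every contrast, as without it. The block ended the call of Jak2 in Cre males (adjusted p 0.0646) and of Irf2bp1 averaged over sexes (0.0704), and the fit to 2 groups that of Jak2 (0.0785). Leaving out single libraries gave medians of -0.12 to 0.014 for stress in females, -0.12 to 0.036 for stress in males and -0.12 to 0.10 for their interaction, the ends of the last without stressed female library 3 and control female library 2. The Cre medians ran from -0.70 to 0.14 in females, from 0.09 to 0.48 in males and from -0.16 to 0.25 averaged over sexes. The sex median in floxed mice ran from -0.22 to 0.13. Gbp7 under Cre in females, at -0.35, ran from -0.677 without Cre female library 3 to 0.048 without GFP female library 2. No gene of the list was called by edgeR with any library left out. Wild-type depth limits class II genes and Irf7 to a few reads per library. Intervals of 3 libraries per group are wide, and a p above the threshold does not show that levels were equal.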
